A study of Mus musculus with 8 samples.

Results

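The 10 B lineage transcription factor genes Pax5, Ebf1, Spib, Bach2, Bcl6, Irf8, Pou2af1, Ikzf1, Ikzf3 and Id3 were followed through 4 groups of mouse spleen B cells. They were taken by symbol: every probe set of the table whose only gene symbol was 1 of these 10 was used, which gave 11 of 22225 probe sets with a single symbol, and 10 of 21515 genes. Each gene had 1 probe set except Irf8, which had 2. A further Bach2 probe set also carries the symbol of an antisense gene and was left out.

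Each group was measured on 2 arrays that the labels call biological replicates, without saying which animals they came from. The p-values set group differences against the spread between replicate arrays of these samples, pooled over the 4 groups. LMP1 cells were female B cells of (C57BL6XBALBc) F1 mice with the alleles LMP1flSTOP/YFPflSTOP, in which recombination starts LMP1, a viral membrane protein that signals without a ligand, together with the reporter YFP. YFP control cells came from female mice of the same cross with YFPflSTOP/+, so they switched on the reporter alone. Both kinds of cell received the recombinase TAT-Cre in culture and were sorted for YFP 2 days later. CD40-activated cells came from male C57BL6 mice of strain B6/J and spent 2 days with an antibody against CD40, the receptor through which helper T cells stimulate B cells. Naive control cells came from the same male strain and went into RNA extraction without culture, so CD40-activated and naive cells differ by culture as well as by the antibody. All cells were enriched from spleen by removing CD43-bearing cells, and ages are not given in the sources used here. The LMP1 and YFP control arrays came from an earlier series and were processed again with the new ones. Between the earlier and the new arrays, the effects of strain, sex, TAT-Cre, sort and array set cannot be told apart.

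The genes encode the proteins that make and hold a B cell. Ebf1 and Pax5 commit progenitors to the lineage and keep B cell genes on, Spib and Irf8 are an Ets factor and an interferon regulatory factor that bind composite sites with partners, and Pou2af1 is the B cell coactivator of octamer-binding proteins. Bach2 and Bcl6 are repressors that delay the plasma cell program, Bcl6 being the factor that defines germinal centre cells, and Ikzf1 (Ikaros) and Ikzf3 (Aiolos) are related zinc finger proteins. Id3 encodes an inhibitor that takes E proteins off DNA.

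LMP1 cells had lower levels of 6 of the 10 genes than YFP control cells and higher levels of 0, at an adjusted p under 0.05. These were Bcl6, Ikzf3, Bach2, Id3, Ebf1 and Irf8, while Pax5, Pou2af1, Ikzf1 and Spib did not pass. Of all 21515 genes 23.2% passed in that comparison, 14.9% higher and 8.31% lower in LMP1 cells. CD40-activated cells had 3 of the 10 genes lower than naive control cells, namely Bach2, Bcl6 and Ebf1, and 2 higher, Pou2af1 and Irf8. There 17.7% of all genes passed, 11.0% higher and 6.65% lower in activated cells. By mean level over the 8 arrays Id3 stood at percentile 73 of all genes, Bcl6 at 83.5 and the others between 97.5 and 99.4. The shares over all genes thus include many dimmer genes, and shares at like levels were not tested. The members were also chosen with earlier results of these data known. The median change of the 10 genes was -0.84 log2 with LMP1 and -0.10 log2 with CD40 activation, beside medians over all genes of -0.08 and -0.05. Levels are log2 expression as deposited, so a difference of 1 is a factor of 2, and changes carry standard errors from a model of all 8 arrays.

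**Figure D1:**
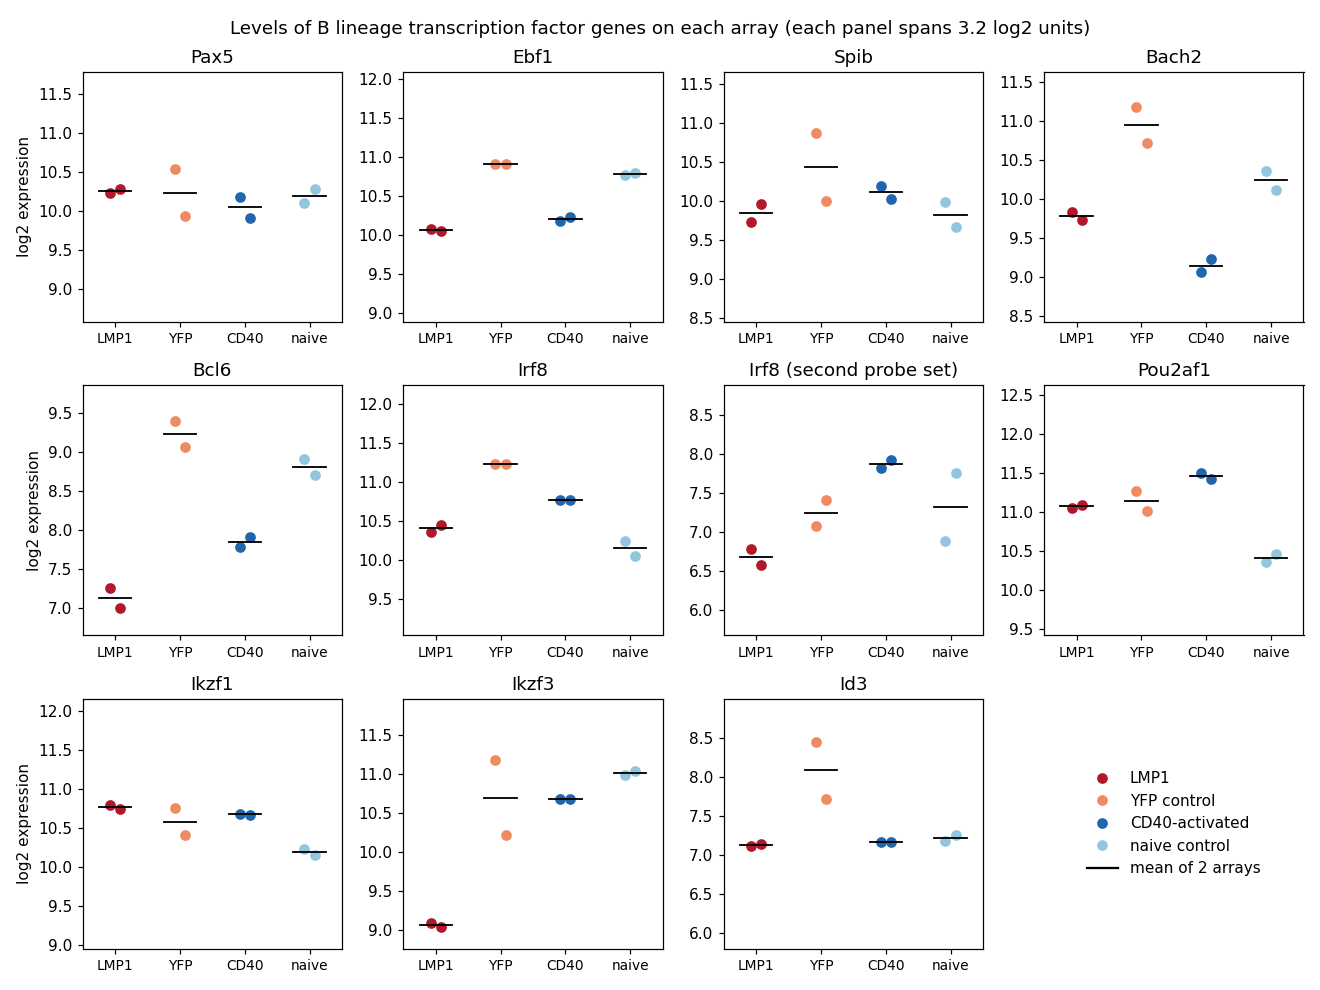
Log2 expression of each of the 11 probe sets (y axis, 3.2 log2 units in every panel) in the 4 groups (x axis), with 1 point per array and a line at the mean of 2 arrays. The LMP1 points of Bcl6 and Ikzf3 lie below all other points of those genes, and the Pax5 points of the 4 groups overlap.

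**Figure D2:**
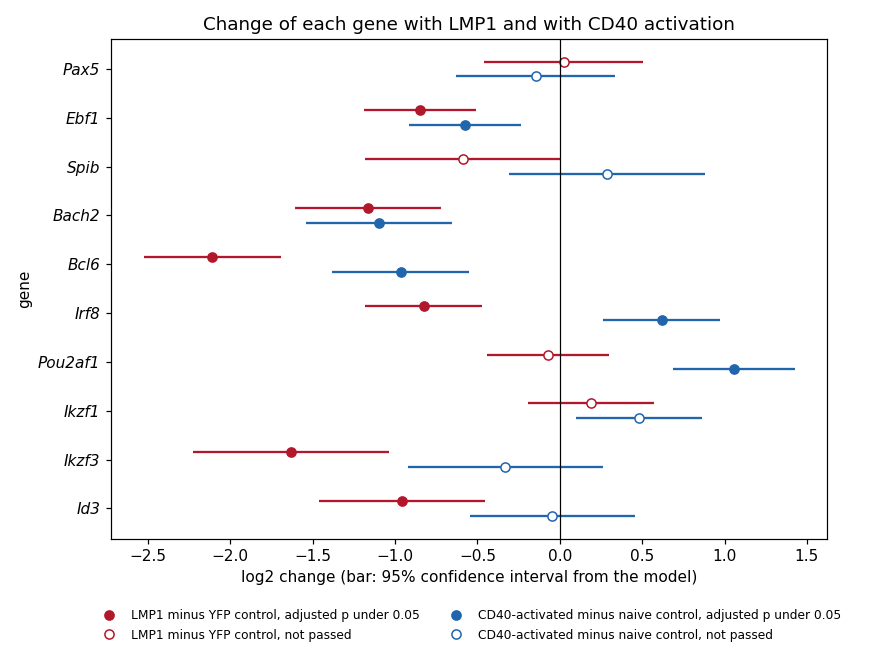
Log2 change of each gene (x axis) with LMP1 against YFP control (red) and with CD40 activation against naive control (blue), with bars for the 95% confidence interval and filled points for an adjusted p under 0.05. Bcl6, Bach2 and Ebf1 lie left of 0 in both colours, and Irf8 lies left of 0 in red and right of 0 in blue.

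Windows around annotated start sites are shown, 1 for each gene and both for Bcl6. They cover the 3 genes that were lower in both responses and the 2 that were higher with CD40 activation. Of these 2, Irf8 was lower with LMP1 and Pou2af1 did not pass with LMP1. The windows hold 250 bases before and 50 bases after a start, from RefSeq on GRCm38.p6, where 9 of the 10 genes matched with 13 windows in all. Capitals mark matches on either strand to 8 motifs: the NF-kB consensus site, the octamer ATGCAAAT, the Ebf1 palindrome CCCNNGGGA, the Bcl6 site TTCCTNGAA, the interferon response pair (GAAA, any 2 bases, GAAA), the AP-1 site TGANTCA, the E box CAGGTG and the Ets site GAGGAA. The capitals of different motifs did not overlap in these windows.
Bcl6, upstream start, chr16:23988803-23989102, minus strand: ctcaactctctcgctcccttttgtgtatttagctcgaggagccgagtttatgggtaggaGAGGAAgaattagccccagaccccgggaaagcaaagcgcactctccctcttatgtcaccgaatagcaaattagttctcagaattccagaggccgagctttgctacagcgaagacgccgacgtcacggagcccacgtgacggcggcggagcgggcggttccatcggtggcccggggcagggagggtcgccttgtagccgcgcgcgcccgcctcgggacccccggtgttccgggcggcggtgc
Bcl6, downstream start, chr16:23981234-23981533, minus strand: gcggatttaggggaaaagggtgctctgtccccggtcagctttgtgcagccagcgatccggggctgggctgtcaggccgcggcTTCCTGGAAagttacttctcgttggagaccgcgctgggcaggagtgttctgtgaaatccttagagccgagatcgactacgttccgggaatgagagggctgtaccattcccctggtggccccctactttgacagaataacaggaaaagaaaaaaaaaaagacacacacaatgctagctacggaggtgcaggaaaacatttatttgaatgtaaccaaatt
Bach2, chr4:32417185-32417484, plus strand: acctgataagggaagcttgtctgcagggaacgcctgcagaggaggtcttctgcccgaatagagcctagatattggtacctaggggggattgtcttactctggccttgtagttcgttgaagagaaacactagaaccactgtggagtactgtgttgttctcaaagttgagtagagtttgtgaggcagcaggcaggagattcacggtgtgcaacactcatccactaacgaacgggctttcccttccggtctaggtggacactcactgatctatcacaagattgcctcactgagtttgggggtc
Ebf1, upstream start, chr11:44617850-44618149, plus strand: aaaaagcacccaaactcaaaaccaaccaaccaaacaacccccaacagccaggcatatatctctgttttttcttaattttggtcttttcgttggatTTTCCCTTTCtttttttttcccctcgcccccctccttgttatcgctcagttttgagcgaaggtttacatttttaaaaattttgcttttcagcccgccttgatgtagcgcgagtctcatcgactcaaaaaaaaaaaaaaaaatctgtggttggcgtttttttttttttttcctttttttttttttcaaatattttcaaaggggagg
Irf8, upstream start, chr8:120736108-120736407, plus strand: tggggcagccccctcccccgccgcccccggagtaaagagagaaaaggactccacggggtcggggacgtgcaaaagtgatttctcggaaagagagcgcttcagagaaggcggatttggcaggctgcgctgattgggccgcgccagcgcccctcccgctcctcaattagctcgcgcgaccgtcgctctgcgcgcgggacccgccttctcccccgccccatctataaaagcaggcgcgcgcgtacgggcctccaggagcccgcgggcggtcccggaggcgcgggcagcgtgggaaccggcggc
Pou2af1, chr9:51213440-51213739, plus strand: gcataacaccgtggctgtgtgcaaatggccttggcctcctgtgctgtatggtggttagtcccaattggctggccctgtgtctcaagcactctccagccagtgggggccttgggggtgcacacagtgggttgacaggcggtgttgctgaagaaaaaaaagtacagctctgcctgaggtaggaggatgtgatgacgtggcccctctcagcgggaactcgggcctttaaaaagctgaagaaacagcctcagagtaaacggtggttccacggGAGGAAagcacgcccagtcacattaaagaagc

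The downstream Bcl6 window held the Bcl6 site at positions -168 to -160 from the start, a motif found in 1.6% of 32851 windows of this length. The upstream Bcl6 window and the Pou2af1 window each held the Ets site, which 28.3% of windows hold. The upstream Ebf1 window held the interferon response pair, found in 3.4% of windows. The Bach2 window and the upstream Irf8 window held no match to the 8 motifs. Of the second windows not printed, that of Ebf1 held the Ets site at positions -130 to -125 and that of Irf8 held the E box at positions -205 to -200. Over all windows the NF-kB consensus site matched in 4.5%, the octamer in 1.7%, the Ebf1 palindrome in 6.6%, the AP-1 site in 7.8% and the E box in 20.2%. Spib was the member whose window held the NF-kB consensus site. A match is a run of letters and not a measured binding site.

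Pax5, the commitment factor, did not pass in any comparison. Its log2 levels were 10.24 and 10.29 in LMP1 cells, 10.54 and 9.94 in YFP control cells, 10.18 and 9.92 in CD40-activated cells, and 10.11 and 10.28 in naive control cells. No neighbouring groups in the order of means were apart, and the 4 group means spanned 0.22 log2. The change with LMP1 was 0.03 ± 0.22 (95% confidence interval -0.46 to 0.51, adjusted p = 0.954) and the change with CD40 activation was -0.15 ± 0.22 (-0.63 to 0.34, adjusted p = 0.704). The 2 YFP control arrays were 0.60 apart, and without YFP control 2 the change with LMP1 was -0.28 (adjusted p = 0.381).

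Ebf1, which opens chromatin at B cell genes, was lower in both kinds of activated cell. It was at 10.08 and 10.05 in LMP1 cells and at 10.91 and 10.92 in YFP control cells, a change of -0.85 ± 0.15 (n = 2 arrays per group, adjusted p = 0.00275), or 1.80-fold lower. It was at 10.19 and 10.24 in CD40-activated cells and at 10.78 and 10.80 in naive control cells, a change of -0.58 ± 0.15 (adjusted p = 0.0276), or 1.49-fold lower. The groups did not overlap in either comparison, and the 2 arrays of every group lay within 0.05 of each other. The difference between the changes was -0.28 ± 0.22 (-0.76 to 0.21, adjusted p = 0.510). The change with LMP1 passed under all 17 alternatives tried. The change with CD40 activation kept its direction, but its adjusted p was 0.158 without CD40-activated 1, 0.131 without CD40-activated 2, 0.0649 without naive control 1, 0.0773 without naive control 2, 0.0718 without either LMP1 array and 0.0680 with array medians aligned.

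Bcl6, the germinal centre repressor, had the largest change of the 10 genes with LMP1. It was at 7.25 and 7.00 in LMP1 cells and at 9.40 and 9.07 in YFP control cells, a change of -2.11 ± 0.19 (adjusted p = 5.47e-05), or 4.32-fold lower. It was at 7.78 and 7.91 in CD40-activated cells and at 8.91 and 8.71 in naive control cells, a change of -0.97 ± 0.19 (adjusted p = 0.00613), or 1.95-fold lower. The order of means was LMP1, CD40-activated, naive control and YFP control, and each neighbouring pair was apart on all arrays. The LMP1 change minus the CD40 change was -1.15 ± 0.26 (adjusted p = 0.0271), and LMP1 minus CD40-activated cells was -0.72 ± 0.19 (adjusted p = 0.0278). The change with LMP1 passed under all 17 alternatives, with values between -2.38 and -1.95, and the change with CD40 activation had an adjusted p of 0.0672 without CD40-activated 1. The difference of changes did not pass without LMP1 1 (-1.27, adjusted p = 0.0768), LMP1 2 (-1.02, 0.149), CD40-activated 1 (-1.21, 0.0908), CD40-activated 2 (-1.08, 0.130) or naive control 2 (-1.05, 0.0711), and the direct difference did not pass without LMP1 1 (-0.85, 0.0932), LMP1 2 (-0.60, 0.249), CD40-activated 1 (-0.79, 0.110) or CD40-activated 2 (-0.66, 0.197).

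Bach2, which holds back the plasma cell gene Prdm1, fell in both responses. It was at 9.83 and 9.73 in LMP1 cells and at 11.18 and 10.71 in YFP control cells, a change of -1.17 ± 0.20 (adjusted p = 0.00204). It was at 9.06 and 9.22 in CD40-activated cells and at 10.36 and 10.11 in naive control cells, a change of -1.10 ± 0.20 (adjusted p = 0.00444). The groups did not overlap in either comparison, and all 4 groups were apart from their neighbours in the order CD40-activated, LMP1, naive control and YFP control. The difference between the changes was -0.07 ± 0.28, with an interval from -0.70 to 0.56 (adjusted p = 0.922). Leaving out CD40-activated 1 gave the CD40 change an adjusted p of 0.0553 at -1.02, and the LMP1 change passed under all 17 alternatives, between -1.40 and -0.93. LMP1 cells had 0.64 ± 0.20 more than CD40-activated cells without passing (adjusted p = 0.0592), a difference that passed with each YFP control array left out (adjusted p = 0.0170 each) and with those 2 groups alone in the model (0.00582).

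Irf8, the interferon regulatory factor that pairs with PU.1 and Spib, moved in opposite directions. Its brighter probe set was at 10.37 and 10.45 in LMP1 cells and at 11.23 and 11.24 in YFP control cells, a change of -0.83 ± 0.16 (adjusted p = 0.00411). It was at 10.78 and 10.77 in CD40-activated cells and at 10.25 and 10.06 in naive control cells, a change of 0.62 ± 0.16 (adjusted p = 0.0239). The difference between these changes was -1.45 ± 0.22 (adjusted p = 0.00410), the largest of the 10 genes, and it passed under all 16 alternatives. YFP control cells were the highest group and naive control cells the lowest, so the activated groups lay between the controls. They differed by -0.37, LMP1 minus CD40-activated, without passing (adjusted p = 0.180), and this difference passed under 3 of 16 alternatives. The adjusted p of the LMP1 change was 0.0553 without LMP1 1, at -0.79, and the CD40 change did not pass without either LMP1 array (0.0606), without naive control 2 (0.53, adjusted p = 0.0970), without CD40-activated 1 (0.134) or CD40-activated 2 (0.132), or with quantile normalization within each array set (0.44, adjusted p = 0.0765).

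The second Irf8 probe set was dimmer and gave another order. It read 6.79 and 6.58 in LMP1 cells, 7.08 and 7.41 in YFP control cells, 7.82 and 7.93 in CD40-activated cells, and 6.89 and 7.76 in naive control cells. Its changes had the signs of the brighter probe set, at -0.56 ± 0.27 with LMP1 (adjusted p = 0.172) and 0.55 ± 0.27 with CD40 activation (adjusted p = 0.198), without passing. Between the controls the probe sets disagreed, with YFP control minus naive control at 1.08 ± 0.16 on the brighter set and -0.08 ± 0.27 on the second. LMP1 minus CD40-activated cells was -1.19 ± 0.27 on the second set (adjusted p = 0.0139). On that set the difference between the changes was -1.11 ± 0.38 without passing (adjusted p = 0.109).

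Spib, an Ets factor close to PU.1, did not pass in either response. It was at 9.73 and 9.96 in LMP1 cells and at 10.87 in YFP control 1 and 0.87 below that in YFP control 2, a change of -0.59 ± 0.27 (adjusted p = 0.151). It was at 10.19 and 10.03 in CD40-activated cells and at 9.98 and 9.67 in naive control cells, a change of 0.29 ± 0.27 (adjusted p = 0.520). LMP1 cells were below both YFP control arrays and overlapped the naive control arrays, and CD40-activated cells were above both naive control arrays. Without YFP control 2 the change with LMP1 was -1.03 and passed (adjusted p = 0.00784), and without YFP control 1 it was -0.16 (adjusted p = 0.594).

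Pou2af1, the octamer coactivator, was higher after CD40 activation. It was at 11.50 and 11.42 in CD40-activated cells and at 10.35 and 10.46 in naive control cells, a change of 1.06 ± 0.17 (adjusted p = 0.00212), or 2.08-fold higher. It was at 11.05 and 11.09 in LMP1 cells and at 11.27 and 11.01 in YFP control cells, which overlapped, with a change of -0.07 ± 0.17 (adjusted p = 0.813). The difference between the changes was -1.13 ± 0.23 (adjusted p = 0.0175). Naive control cells were the lowest group and apart from the others, and YFP control cells exceeded them by 0.74 ± 0.17 (adjusted p = 0.0137), so the groups kept in culture were all above the uncultured one. The CD40 change passed under all 17 alternatives, and the difference of changes did not pass without LMP1 1 (-1.11, adjusted p = 0.103), LMP1 2 (-1.15, 0.0897), CD40-activated 1 (-1.09, 0.0910) or CD40-activated 2 (-1.17, 0.0775).

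Of the Ikaros relatives Ikzf3 fell with LMP1 and Ikzf1 passed in neither response. Ikzf3, encoding Aiolos, was at 9.09 and 9.03 in LMP1 cells and at 11.17 and 10.21 in YFP control cells, a change of -1.63 ± 0.27 (adjusted p = 0.00160), or 3.10-fold lower. It was at 10.67 and 10.68 in CD40-activated cells and at 10.98 and 11.03 in naive control cells, a change of -0.33 ± 0.27 (adjusted p = 0.449). LMP1 cells thus lay more than 1 log2 below every other array, and LMP1 minus CD40-activated cells was -1.62 ± 0.27 (adjusted p = 0.00286). The difference between the changes was -1.30 ± 0.38 without passing (adjusted p = 0.0645). The YFP control arrays were 0.96 apart, so the change with LMP1 was -1.15 without YFP control 1 and -2.11 without YFP control 2, passing both times, and the difference of changes was -0.82 (adjusted p = 0.0248) and -1.78 (adjusted p = 0.00172) in those fits.

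Ikzf1, encoding Ikaros, was at 10.80 and 10.74 in LMP1 cells and at 10.75 and 10.41 in YFP control cells, a change of 0.19 ± 0.17 (-0.19 to 0.57, adjusted p = 0.488). It was at 10.68 and 10.67 in CD40-activated cells and at 10.23 and 10.16 in naive control cells, a change of 0.48 ± 0.17 (adjusted p = 0.0848). Naive control cells were lowest and apart from the other groups, among which YFP control overlapped both CD40-activated and LMP1. The CD40 change passed when either YFP control array was left out (adjusted p = 0.0257 each).

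Id3, the inhibitor of E proteins, was highest in YFP control cells. It was at 7.11 and 7.14 in LMP1 cells and at 8.45 and 7.72 in YFP control cells, a change of -0.96 ± 0.22 (adjusted p = 0.0116). It was at 7.17 and 7.17 in CD40-activated cells and at 7.18 and 7.25 in naive control cells, a change of -0.05 ± 0.22 (adjusted p = 0.921). LMP1, CD40-activated and naive control means lay within 0.09 of each other, and YFP control cells exceeded naive control cells by 0.87 ± 0.22 (adjusted p = 0.0250). The LMP1 change had adjusted p = 0.0822 without LMP1 1, 0.0704 without LMP1 2 and 0.0613 with only LMP1 and YFP control in the model, and was -0.60 without YFP control 1 and -1.33 without YFP control 2, passing both times. The YFP control arrays were 0.73 apart.

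The direct comparison of LMP1 with CD40-activated cells passed for 2 of the 10 genes, Ikzf3 and Bcl6, both lower in LMP1 cells, beside 14.8% of all genes (9.66% higher, 5.17% lower). Pou2af1, at -0.39 there (adjusted p = 0.170), passed under 2 of 16 alternatives. The difference between the LMP1 and CD40 changes passed for 3 genes, Irf8, Bcl6 and Pou2af1, each with the more negative change under LMP1, beside 8.32% of all genes (4.20% more positive and 4.12% more negative). YFP control and naive control cells, neither of which received LMP1 or the antibody, differed for 4 genes, all higher in YFP control: Irf8 by 1.08, Id3 by 0.87, Pou2af1 by 0.74 and Bach2 by 0.71, beside 18.5% of all genes (10.9% higher, 7.59% lower). The call was lost under 9 of 16 alternatives for Bach2, 8 for Id3, 3 for Pou2af1 and 1 for Irf8, where the mean of both Irf8 probe sets gave 0.50 (adjusted p = 0.0747). Without naive control 1 the controls differed for 1 gene, and without YFP control 2 for 6. Ikzf3 differed by -0.80 without YFP control 1 (adjusted p = 0.00750). These comparisons share arrays with the responses above: a level that is high in YFP control enters the LMP1 change with the opposite sign.

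**Figure D3:**
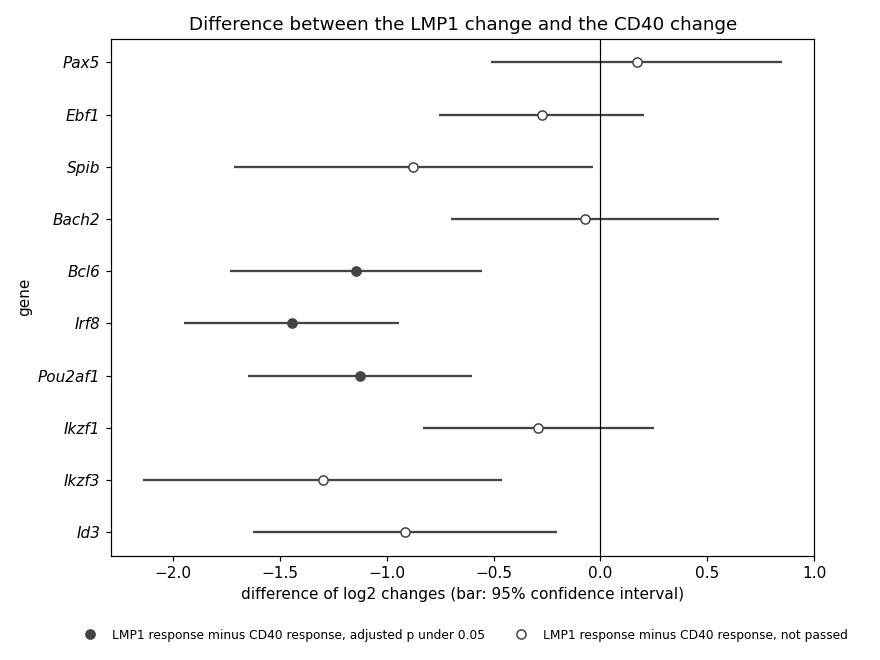
Difference between the LMP1 change and the CD40 change (x axis, log2) for each gene, with bars for the 95% confidence interval and filled points for an adjusted p under 0.05. Irf8, Bcl6 and Pou2af1 are filled and lie left of 0, and the intervals of Pax5, Ebf1, Bach2 and Ikzf1 include 0.

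Markers of other cells differed between the groups being compared. The mean log2 level of 7 measured T cell markers (of 9 listed) was 5.51 to 5.68 on LMP1 arrays, 5.56 to 6.01 on YFP control arrays, 5.73 to 6.08 on CD40-activated arrays and 8.43 to 8.68 on naive control arrays, and all 7 were lower in CD40-activated and in YFP control cells than in naive control cells. Of 7 NK cell markers 5 were lower in CD40-activated than in naive control cells, with means of 4.49 to 4.50 against 6.26 to 6.79. The red cell gene Slc4a1 was at 5.27 and 5.47 in CD40-activated cells and at 11.15 and 9.39 in naive control cells, and lay between 5.25 and 5.89 on the LMP1 and YFP control arrays. Of 7 erythroid and platelet markers 3 were measured, and 1, Slc4a1, was lower in CD40-activated and in YFP control cells than in naive control cells. Their means were 4.93 to 5.01 on LMP1, 5.08 to 5.44 on YFP control, 4.92 to 4.98 on CD40-activated and 6.62 to 7.22 on naive control arrays. Ikzf1, Ikzf3, Bach2, Bcl6 and Id3 are also used by T cells, and the part of T, NK and red cell RNA in the differences from naive control was not tested. These markers enter the difference between the changes as well, through naive control. Between LMP1 and YFP control 1 of 7 T cell markers passed, lower in LMP1 cells, and 0 of 7 NK cell markers. Of 7 monocyte and macrophage markers 2 were lower in LMP1 than in YFP control cells, at means of 5.22 to 5.24 against 5.68 to 6.14. Of 6 dendritic cell markers 2 were higher, Flt3 and Zbtb46, at means of 6.40 to 6.61 against 5.48 to 5.65. Of the 4 that did not pass, Batf3 (1.145) and Xcr1 (0.195) were above 0 and Siglech (-0.41) and Itgax (-0.08) below. With CD40 activation the monocyte and macrophage marker Cd68 rose (2.195), and Lyz2 (-2.27) and Cd14 (-0.67) fell. Among the dendritic cell markers Flt3 rose there (0.91) and Itgax fell (-1.81). Irf8 is also a gene of these myeloid cells, and their part in its changes with LMP1 and with CD40 activation was not tested. Of 8 B cell markers listed 6 were measured. All 6 were above the array median in YFP control, CD40-activated and naive control cells, and 5 in LMP1 cells, where Vpreb3 was at 5.38 and 5.30. The means of the 6 were 9.40 to 9.44 on LMP1, 11.19 to 11.25 on YFP control, 10.51 to 10.60 on CD40-activated and 10.72 to 10.77 on naive control arrays, and 5 of the 6 were lower in LMP1 than in YFP control cells. In bulk RNA, fewer cells of a type and less RNA per cell cannot be told apart.

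Replicate arrays correlated across genes with r from 0.975 in YFP control to 0.996 in LMP1, and genes are not independent replicates. A gap of more than 1 log2 between replicates was found for 14 genes in LMP1, 950 in YFP control, 34 in CD40-activated and 364 in naive control cells. The largest YFP control gaps among the 10 members lay below that, at 0.96 for Ikzf3, 0.87 for Spib, 0.73 for Id3 and 0.60 for Pax5, with YFP control 1 the higher array each time. The naive control arrays were 0.87 apart on the second Irf8 probe set, with naive control 2 the higher.

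Partners of the 10 factors and related factors were counted together from lists of 40 genes, of which 32 were measured and 8 were not analysed here. With LMP1 8 rose and 11 fell, with a median change of 0.04, and with CD40 activation 5 rose and 7 fell, with a median of 0.03. Beside these, 14.9% of all genes rose and 8.31% fell with LMP1, and 11.0% rose and 6.65% fell with CD40 activation. Among the proteins that Id3 and its relatives regulate, the E protein gene Tcf4 fell by 0.70 ± 0.22 with LMP1 (adjusted p = 0.0425) and rose by 0.73 ± 0.22 with CD40 activation (adjusted p = 0.0456). The Tcf4 calls were lost without YFP control 1 and without naive control 2. The inhibitor gene Id2 rose by 1.61 ± 0.18 with LMP1 (adjusted p = 1.90e-04) and fell by 1.43 ± 0.18 with CD40 activation (adjusted p = 6.55e-04). Tcf3 (0.02 and -0.11) and Tcf12 (-0.35 and 0.48) did not pass. Id2 levels were 9.61 and 9.64 in LMP1 cells, 7.81 and 8.22 in YFP control cells, 7.01 and 6.93 in CD40-activated cells and 8.35 and 8.44 in naive control cells.

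Irf4, which replaces Irf8 at shared sites as B cells become plasma cells, rose in both responses, by 0.78 ± 0.20 with LMP1 (adjusted p = 0.0166) and 0.99 ± 0.20 with CD40 activation (adjusted p = 0.00713). Its arrays read 10.30 and 10.22 in LMP1 cells against 9.74 and 9.22 in YFP control cells, and 10.21 and 10.15 in CD40-activated cells against 9.27 and 9.11 in naive control cells. The LMP1 call of Irf4 was lost without YFP control 2. Pou2f2, the lymphoid octamer-binding protein that Pou2af1 assists, fell in both responses, with changes of -1.41 ± 0.21 for LMP1 (adjusted p = 0.00103) and -0.86 ± 0.21 for CD40 activation (adjusted p = 0.0207), and the CD40 change did not pass with either naive control array left out. The Ets factor Elf1 fell with LMP1 by 0.83 ± 0.15 (adjusted p = 0.00335) and was at 0.26 with CD40 activation without passing. Bach1, the relative of Bach2, fell with LMP1 by 1.35 ± 0.19 (adjusted p = 7.52e-04), and of its 3 small Maf partners 0 passed in either response. In the Ikaros family Ikzf5 rose with LMP1 by 1.15 ± 0.32 (adjusted p = 0.0265), with YFP controls at 7.49 and 6.26, and Ikzf2 fell with CD40 activation by 1.02 ± 0.19 (adjusted p = 0.00452). Of the Bcl6 corepressors Hdac3 was measured, and it rose with CD40 activation by 0.77 (adjusted p = 0.0271), a call lost with either naive control array left out.

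Among the 32 factors counted above, the other B cell factors moved widely with LMP1. Of 14 measured of 16 listed, 5 rose and 7 fell with LMP1, and 2 rose and 4 fell with CD40 activation. These calls are among those already given for the 32 factors. The shares over all genes were 14.9% higher and 8.31% lower with LMP1, and 11.0% and 6.65% with CD40 activation. T-bet (Tbx21), the factor of interferon-driven B cells, rose by 3.41 with LMP1 and fell by 1.31 with CD40 activation, and Lef1, a factor of early B cells, rose by 2.55 with LMP1 and fell by 1.84 with CD40 activation. Bhlhe41, used by B1 cells, fell by 2.87 with LMP1 and rose by 2.11 with CD40 activation. The largest other decreases with LMP1 were those of Nfatc1 (-1.78), Runx1 (-1.55) and Foxp1 (-1.42). Lef1 and Sox4 are also T cell genes, and the part of T cell RNA in their falls from naive levels was not tested. The part of T and NK cell RNA in the falls of Tbx21, Id2 and Ikzf2 from naive levels was not tested either.

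**Figure D4:**
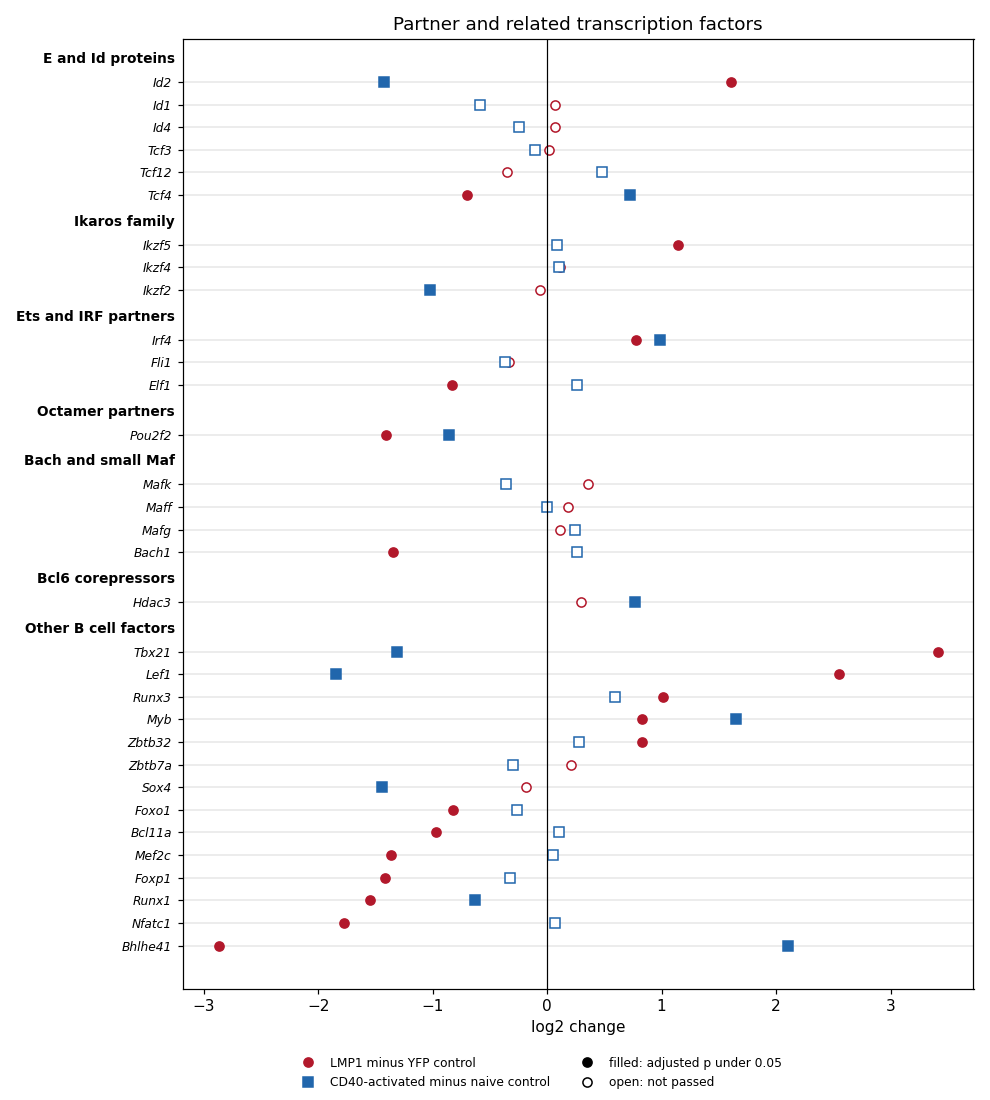
Log2 change (x axis) of the 32 measured partner and related factors, with circles for LMP1 against YFP control and squares for CD40-activated against naive control, filled at an adjusted p under 0.05. Tbx21, Lef1 and Id2 lie right of 0 with LMP1 and left of 0 with CD40 activation, and Bhlhe41 and Tcf4 lie the other way round.

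Genes that Bcl6 is known to repress were mostly higher in LMP1 cells. Of 13 measured of 14 listed, 8 rose and 2 fell with LMP1, with a median change of 1.61 beside -0.08 over all genes. Of all genes 14.9% rose and 8.31% fell with LMP1, and 11.0% rose and 6.65% fell with CD40 activation. The list was chosen with earlier results of these data known, so its counts are no test of repression by Bcl6. The cell cycle inhibitor Cdkn1a rose by 4.03, the costimulatory ligand Cd80 by 3.78, the survival gene Bcl2l1 by 3.70 and the chemokine Cxcl10 by 3.26. The 2 that fell were the migration receptors S1pr1 (-4.29) and Gpr183 (-1.10), and Prdm1, the plasma cell master gene, was at -0.46 without passing (adjusted p = 0.131). With CD40 activation 5 of the 13 rose and 4 fell, with a median of -0.17, and the counts were 4 and 2 without naive control 1 and 2 and 4 without naive control 2. Cd80 rose there by 3.94 and Cdkn1a by 1.46, and Bcl2l1 (-0.49) and Cxcl10 (-0.17) did not pass.

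Of the genes that Pax5 activates, 8 of 12 were measured, and with LMP1 2 rose and 4 fell while Pax5 itself was at 0.03. Ciita, the class II transactivator, changed by -2.70 and the receptor signalling genes Cd79a, Blnk and Cd79b by -1.17, -0.68 and -0.68, whereas Lef1 rose by 2.55 and the IgE receptor gene Fcer2a by 1.50. Without YFP control 2 the counts were 4 and 4. With CD40 activation 0 rose and 1, Lef1, fell. The shares over all genes were 14.9% higher and 8.31% lower with LMP1, and 11.0% and 6.65% with CD40 activation. Of the genes that Pax5 represses 8 of 9 were measured, and with LMP1 1 rose, the cytokine receptor Flt3 by 2.995, and 2 fell, Jchain (-3.47) and Cd28 (-0.60). With CD40 activation 2 rose, Xbp1 by 1.50 and Flt3 by 0.91, and 3 fell, Jchain (-2.34), Ccr2 (-1.29) and Cd28 (-1.24), and the counts were 2 and 2 without naive control 1 and 1 and 3 without naive control 2. Jchain levels were 4.67 and 4.55 in LMP1 cells and 8.14 and 8.02 in YFP control cells. Cd28 and Ccr2 were also lower in YFP control than in naive control cells (-1.655 and -1.055), whereas Jchain was higher (1.005). The part of RNA of other cells in the falls of Cd28 and Ccr2 from naive levels was not tested.

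Of the genes that Bach2 holds back 1 of 3 measured passed in each response. Over all genes 14.9% rose and 8.31% fell with LMP1, and 11.0% rose and 6.65% fell with CD40 activation. The interleukin receptor gene Il2ra rose with LMP1 by 1.76, with YFP controls at 8.52 and 10.15, and Prdm1 rose with CD40 activation by 0.70 ± 0.20 (adjusted p = 0.0359). With either naive control array left out 0 of the 3 passed for CD40 activation, and Hmox1, the heme oxygenase gene, passed in neither response. Of 6 plasma cell factors and products 1 rose with LMP1, Irf4, and 2 fell, Jchain and Sdc1 (-0.91), and the counts were 2 and 2 without YFP control 1 and 0 and 2 without YFP control 2. With CD40 activation 3 rose, Xbp1, Irf4 and Prdm1, and Jchain fell, and the counts were 2 and 1 without either naive control array. LMP1 minus CD40-activated cells was -0.82 for Prdm1 (adjusted p = 0.0208) and -0.57 for Xbp1 (adjusted p = 0.0480).

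**Figure D5:**
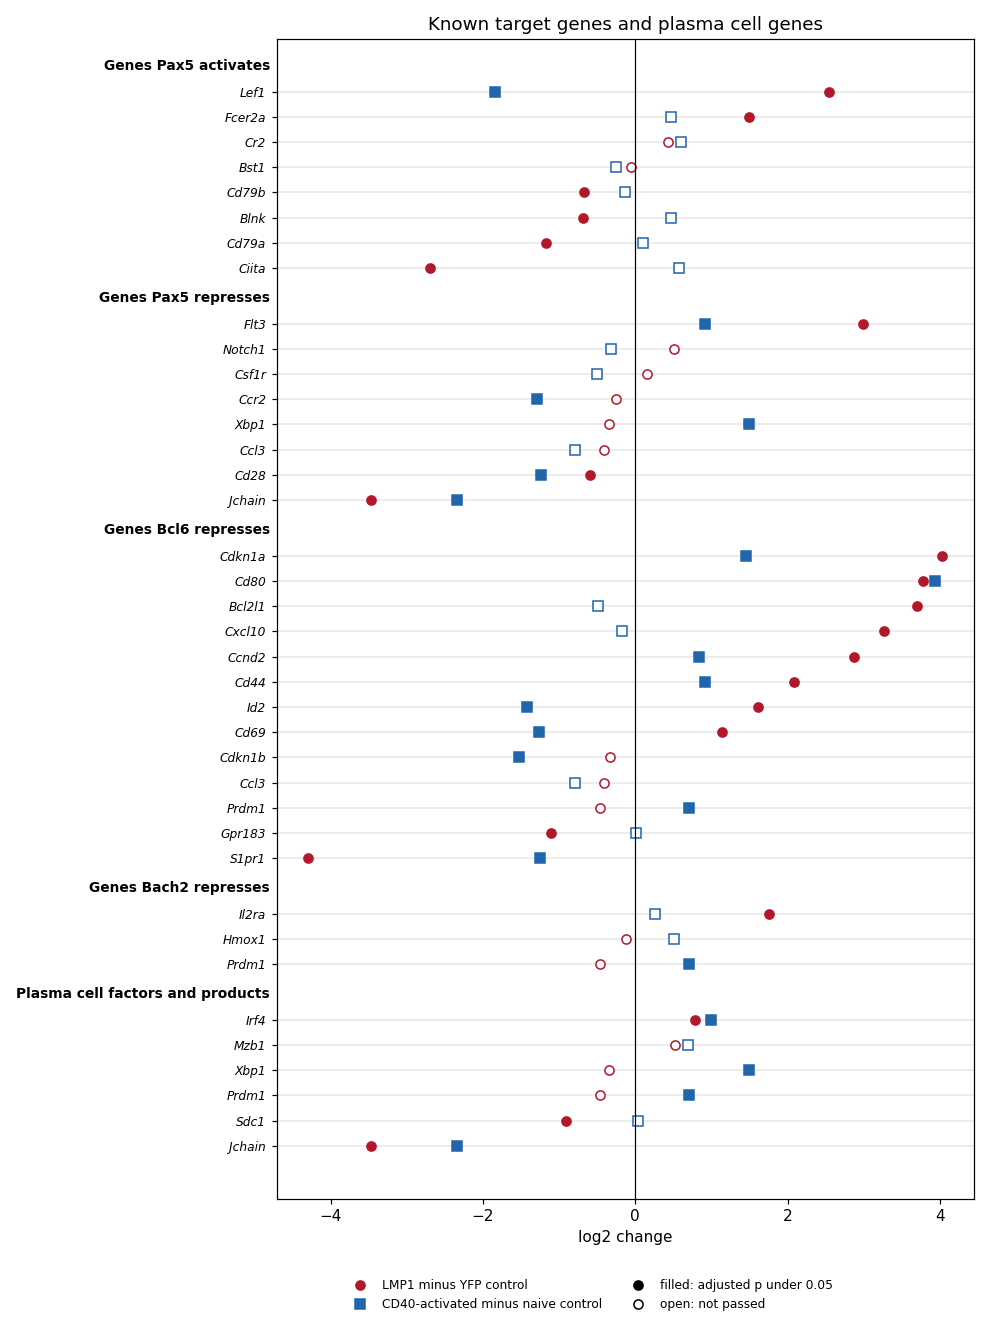
Log2 change (x axis) of known target genes of Pax5, Bcl6 and Bach2 and of plasma cell genes, with circles for LMP1 against YFP control and squares for CD40-activated against naive control, filled at an adjusted p under 0.05. Of the 13 genes that Bcl6 represses, 8 filled circles lie right of 0 and 2 lie left of 0. S1pr1, 1 of these 2, lies furthest left with LMP1, and Jchain and Ciita also lie far left of 0.

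For the 5 genes whose group means spanned at least 1 log2, the genes with the nearest pattern were sought by the root mean square difference over the 8 arrays after centring. Bach2 was nearest to Phyh (0.09 log2) and Arhgef3 (0.12), and Bcl6 to Tnik (0.11) and Abi3 (0.14). Irf8 was nearest to AU020206 (0.08) and Mcoln1 (0.09), Pou2af1 to Insig2 (0.10) and Ccny (0.10), and Ikzf3 to Tnfaip8l2 (0.10) and 6330407A03Rik (0.11). These are likenesses over 4 groups of 2 arrays.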

How the data were processed

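RNA of 8 samples was labelled with the GeneChip WT PLUS kit and measured on arrays, per the labels' protocols. The deposited values are log2 expression per probe set, made by the authors with RMA in the oligo package (background correction, quantile normalization and summarisation), per the submitters' processing notes, with versions not given. Of 25349 probe sets 22225 had 1 symbol in the platform's table, 616 several and 2508 none. The brightest probe set stood for a gene, which left 21515 genes. Quantile normalization over unlike cells can shift many genes of an array at once.

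One limma model (version 3.58.1, under R 4.3.3) held the means of the 4 groups over all 8 arrays, with moderated tests by eBayes (residual df 4, prior df 5.75). Tests were two-sided, Benjamini-Hochberg adjustment ran over the 21515 genes, and an adjusted p under 0.05 passed. With 2 arrays per group, their number limits the precision. The members and lists were chosen with earlier results of these data known. All members were named, with up to 4 passing genes per list and comparison having the largest change, genes whose role is stated, and the 2 nearest patterns. Errors are standard errors. The fit was tested on simulated data. Alternatives were another variance model, only the groups compared, dim genes left out, aligned medians, quantile normalization within each array set, mean probe sets, array weights, a replicate block, each array left out, and, added after the data were seen, each probe set on its own row and list counts without each control array.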

Additional observations from a re-analysis of the deposited data

How the results depend on the processing

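Of 17 alternatives for LMP1 against YFP control, the count of changed members stayed within 1.5 times of 6 under all. Other counts moved. With only the groups compared in the model, LMP1 against CD40-activated gave 5 members and 6360 genes, and YFP control against naive control 1 member and 1537 genes. Array weights gave 5 members and 6751 genes, and 1 member and 2020 genes, in those comparisons. Aligned medians left 1 member for LMP1 against CD40-activated, and quantile normalization within each set gave 5 members for the difference of changes. Leaving out 1 array at a time gave 4 to 7 members for LMP1 against YFP control, 1 to 6 for CD40-activated against naive control, 1 to 3 for LMP1 against CD40-activated, 1 to 6 for the controls and 1 to 6 for the difference of changes. The counts of all genes were then 2647 to 7090, 1576 to 5631, 1275 to 4735, 2695 to 5955 and 707 to 4199. The replicate numbers of different groups share only a number: deviations of same-numbered arrays correlated at 0.06 between LMP1 and YFP control and at -0.07 between CD40-activated and naive control. With the replicate block the CD40 count was 3 members in place of 5, Ebf1 (adjusted p = 0.0641) and Irf8 (adjusted p = 0.0502) not passing, and the difference of changes gave 4 in place of 3. Quantile normalization within a set gave no value for comparisons across the sets, and the difference of changes needs all 4 groups. The block moved no other count of members or genes by over 1.5 times.

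Signs turned for small changes that had not passed. Pax5 with LMP1 was at -0.17 when each set was quantile normalized alone, and over single arrays left out it ranged from -0.28 to 0.33. Id3 with CD40 activation was at 0.06 with aligned medians. Over single arrays left out, the controls ranged from -0.26 to 0.35 for Pax5 and from -0.80 to 0.17 for Ikzf3, the difference of changes from -0.13 to 0.47 for Pax5 and from -0.31 to 0.17 for Bach2, and the LMP1 change of Pou2af1 from -0.20 to 0.06. Aligned medians moved every gene by 0.11 log2 in the CD40 comparison. The share of passing genes that were higher was 64.2% with LMP1, 70.0% with aligned medians and 52.1% after normalizing each set by quantiles. With CD40 activation these shares were 62.4%, 74.3% and 52.6%.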
